A study of Mus musculus with 6 samples.

Results

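Sirtuins are enzymes that remove acetyl and other acyl groups from proteins and split 1 molecule of NAD in each reaction, so their activity is tied to the supply of NAD. The genes described here are the 7 mouse sirtuins and 3 enzymes that make NAD, and all 10 were present among the 18193 genes that a probe set on the array names alone. They were taken by name, with every probe set annotated to exactly 1 of them, which gave 16 probe sets. Mammalian cells remake most of their NAD from nicotinamide, the by-product of the sirtuin reaction. Nampt turns nicotinamide into nicotinamide mononucleotide, the step that usually limits the rate, and the Nmnat enzymes then complete NAD. In fat cells this salvage route and the deacetylase Sirt1 are known for their part in lipid storage and mitochondrial metabolism, and resveratrol is widely used as a compound said to act through Sirt1.

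The RNA came from 3T3-L1, a line of mouse embryo fibroblasts used as a culture model of fat cell formation, and was measured on 6 one-colour oligonucleotide arrays. Of these, 3 came from untreated control cultures and 3 from cultures treated with resveratrol, a plant polyphenol. The labels state no dose, duration, vehicle or stage of differentiation, and no label says whether cultures of a group were grown apart, so the p-values reflect only how much these particular samples varied, which may be technical. The comparison asks which transcripts of the sirtuin and NAD system differ between treated and untreated cells. Values are the deposited linear intensities. Differences are resveratrol minus control on log2(intensity + 16), a scale that understates changes of dim probe sets. A probe set was called when its adjusted p (limma, Benjamini-Hochberg over all 27022 probe sets tested) was under 0.05. Each probe set has its own response, so values are compared between arrays and not between genes, and sums over marker genes serve only to set the groups side by side.

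Markers of fat cells were measured in both groups, and 4 of them summed to intensities of 24934 to 40217 in control and 24595 to 31514 in treated samples. The adipocyte marker Cidec was called lower, at -0.57 ± 0.11 (SE, adjusted p = 0.00784 in limma). So were the dimmer probe sets of Fabp4, at -0.67 and -0.51, while its brighter ones had -0.22 and -0.14 and were not called. The fibroblast and preadipocyte markers (4 genes) summed to 10617 to 11050 and 9391 to 11050, and Thy1 among them was called higher, at 0.40 ± 0.07 (adjusted p = 0.00807). Col1a1 went the other way, at -0.32 and -0.31, and was not called (adjusted p = 0.0749 and 0.0547 in limma). At their brightest probe sets Pdgfra had -0.07 and Dlk1 0.08, neither called. Macrophage markers (7 genes) had sums of 281.1 to 357.6 in control and 386.5 to 438.8 in treated samples, and Ptprc and Itgam, which mark blood-derived cells, lay below the level tested. The 2 groups did not overlap in that sum. Of its members, Lyz2 had 0.43, Cd68 0.21, Csf1r 0.15 and Adgre1 -0.04 at the brightest probe set, none called. Cd14 was called higher, by 0.47 ± 0.12 (SE, adjusted p = 0.0354 in limma), a call lost without control replicate 2 or 3 or resveratrol replicate 1 or 2, with values of 0.41, 0.48, 0.41 and 0.48. That call was also lost without a filter (adjusted p = 0.0738) and without an intensity trend (adjusted p = 0.0721), and those of Cidec and Thy1 without an intensity trend (adjusted p = 0.0557 and 0.0656). The part of these markers in the results was not tested. Endothelial markers (3 genes) summed to 50.7 to 84.7 and 70.5 to 91.9. Spike-in controls were brighter on control replicates 1 and 2 and resveratrol replicate 1 than on the other 3 arrays. In RNA from whole cultures, fewer cells of a type and less RNA per cell cannot be told apart.

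Nampt was the gene of this set that fell with resveratrol, and no sirtuin was called. The windows upstream of Nampt and of Sirt1 are shown because Nampt carries the change and Sirt1 is the enzyme resveratrol is best known for. Both come from RefSeq on build GRCm38.p6, cover the 250 bases before the annotated start and read 5′ to 3′ along the gene. Capitals mark each ACGTG or GCGTG on either strand, the core letters of the hypoxia response element. Nampt lies on the plus strand, at chr12:32820085-32820334, and Sirt1 on the minus strand, at chr10:63339036-63339285.
Nampt: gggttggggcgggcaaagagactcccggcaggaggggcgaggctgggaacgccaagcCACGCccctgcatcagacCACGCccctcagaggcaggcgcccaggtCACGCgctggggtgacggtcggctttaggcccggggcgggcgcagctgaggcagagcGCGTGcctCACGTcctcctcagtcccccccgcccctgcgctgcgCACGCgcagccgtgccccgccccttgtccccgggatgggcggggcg
Sirt1: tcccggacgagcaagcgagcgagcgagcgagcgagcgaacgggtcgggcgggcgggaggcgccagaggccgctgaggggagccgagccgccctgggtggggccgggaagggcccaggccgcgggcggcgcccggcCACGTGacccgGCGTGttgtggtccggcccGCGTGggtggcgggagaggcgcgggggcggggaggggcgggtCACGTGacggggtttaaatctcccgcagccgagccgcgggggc

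The Nampt window held 5 matches to GCGTG and 1 to ACGTG. At least 5 matches to GCGTG stood in 0.298% of 32851 RefSeq promoter windows of this length, and at least 1 match to ACGTG in 16.6%. The Sirt1 window held 2 copies of CACGTG, the E-box read by basic helix-loop-helix factors, where 0.429% of windows held at least 2. Each of these E-boxes contains ACGTG once on each strand, which makes the 4 ACGTG matches of that window, and 2 further matches were to GCGTG. At least 4 matches to ACGTG stood in 0.502% of windows, and at least 2 to GCGTG in 8.63%. Every cut-off used here is the count seen in the window it describes. The windows are rich in G and C, at 75.6% for Nampt and 79.2% for Sirt1 against a median of 52.4% over all windows, and how far base composition bears on these counts was not tested. A match describes letters only and is not a measured binding site.

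Nampt, the rate-limiting enzyme of NAD salvage, was lower in treated cells at its brightest probe set, 1417190_at. The control arrays had intensities of 1225, 1381 and 1339, and the treated arrays 966.3, 1012 and 1017. All 3 treated arrays lay below all 3 controls, and the means were 1315 ± 80.6 and 998.6 ± 28.1 (SD, n = 3), a decrease of 24.1%. The log2 difference was -0.39 ± 0.07 (SE), with a 95% interval from -0.55 to -0.23 and adjusted p = 0.00916 in limma. Without an intensity trend in the variance model the size was the same and the call was lost, with adjusted p = 0.0695. With any single array left out the call held, between -0.44 and -0.35 with adjusted p from 0.00926 to 0.0482.

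The other Nampt probe sets had smaller differences of the same sign. At 1455320_at the controls had 449.1, 512.8 and 482.1 and the treated arrays 363.2, 392.5 and 411.8, again with no overlap between groups. That difference was -0.30 ± 0.08 (SE), with an interval from -0.48 to -0.11 and adjusted p = 0.0516 in limma, just above the threshold, and 5 of 16 alternative settings called it. At 1448607_at the controls had 137.6, 137.5 and 156.4 and the treated arrays 113.0, 106.7 and 150.2. Here the groups overlapped, through resveratrol replicate 3, and the difference was -0.21 ± 0.13 (adjusted p = 0.394 in limma), or -0.34 without that array. The mean of the 3 Nampt probe sets gave -0.30 ± 0.08 with adjusted p = 0.0314 in a separate limma fit with 1 value per gene. That adjusted p is over genes, so it is not on the scale of those of single probe sets. Each side of the split by spike signal has only 1 array of a group, so values within it carry no test. They were -0.42 on the brighter and -0.39 on the dimmer side for 1417190_at, -0.39 and -0.25 for 1455320_at, and -0.25 and -0.27 for 1448607_at.

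**Figure D1:**
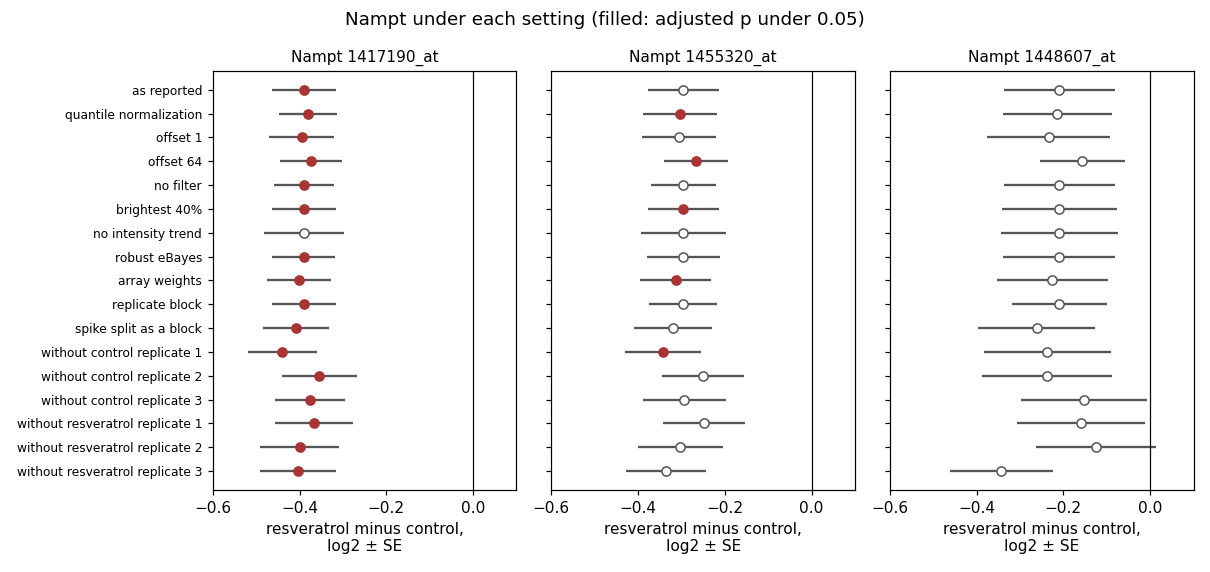
Difference in Nampt between resveratrol and control (x axis, log2 of intensity plus 16, with bars of 1 SE) for each of its 3 probe sets under the reported fit and 16 alternatives (y axis). Filled points have an adjusted p under 0.05: 15 of 16 alternatives for 1417190_at, 5 for 1455320_at and 0 for 1448607_at, with every point below 0.

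Across the whole set, 13 of 16 probe sets were bright enough to be tested, for 9 of the 10 genes, and 1 was called, lower, with 0 called higher. Over all probe sets tested, 8.22% were called. The count of 1 in 13 is therefore near the share over the whole array and is not in itself a result about these genes. At an unadjusted p under 0.05 there were 2, both of Nampt. That threshold was met by 25.8% of all genes tested, each by its brightest probe set. The groups did not overlap for 4 of the 13 (Nampt at 2 probe sets, Sirt3 and Sirt1), where 26.4% of all probe sets tested did not overlap. The median size of the difference, without regard to sign, was 0.16 in the 13 and 0.15 over all probe sets tested. Of the 13, 9 lay below 0 and 4 above.

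**Figure D2:**
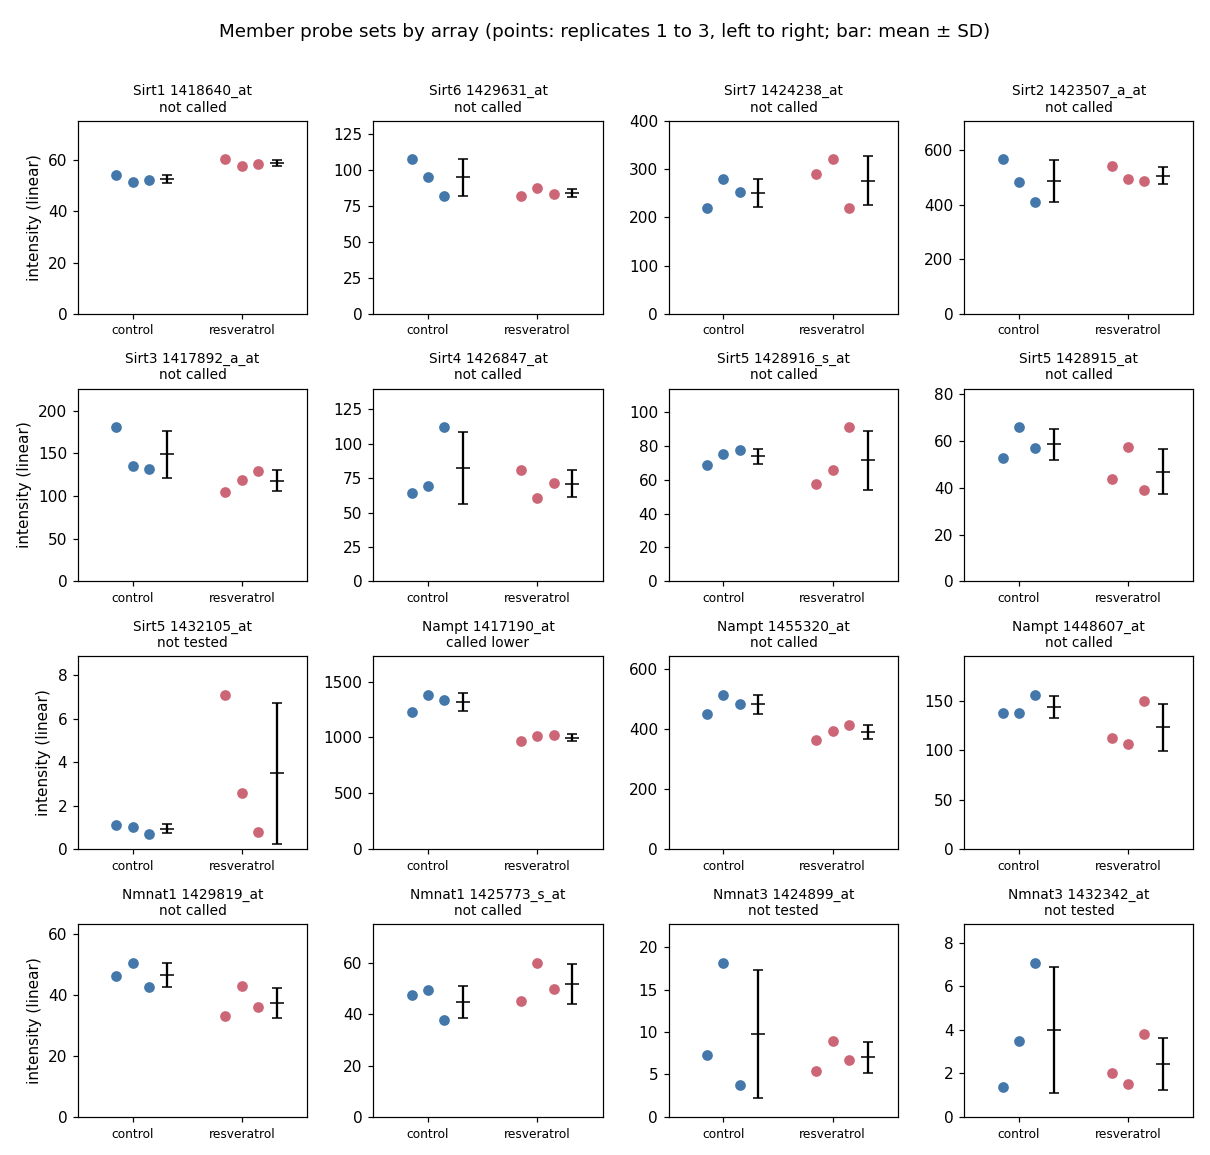
Linear intensity (y axis, from 0, a different range in each panel) on each control and resveratrol array for all 16 probe sets of the sirtuins, Nampt, Nmnat1 and Nmnat3; points are replicates and the bar is the mean ± SD (n = 3). The treated points of Nampt 1417190_at lie between 966.3 and 1017, below the controls at 1225 to 1381, while most sirtuin panels overlap.

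Of the nuclear sirtuins, Sirt1, which deacetylates histones and regulators such as p53, FOXO factors and PGC-1alpha, had a small difference that was even across arrays. Its controls had intensities of 54.5, 51.5 and 52.2 and its treated arrays 60.4, 57.9 and 58.5. All treated arrays lay above all controls, by 11.8% of the mean. The log2 difference was 0.12 ± 0.13 (SE), with an interval from -0.16 to 0.41 and adjusted p = 0.649 in limma. The arrays of Sirt1 spread by a residual SD of only 0.03 on the log2 scale, while limma, which shares information between probe sets of like brightness, used 0.16. In 16 of 16 alternatives the difference was above 0, from 0.07 to 0.16, and 0 of them called it. The interval leaves room for a rise of Sirt1 of up to 0.41 or a fall of 0.16.

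Sirt6, a chromatin deacetylase linked to DNA repair and glycolytic genes, had 107.2, 95 and 81.8 in control and 81.5, 87.1 and 83.4 in treated cells. The treated arrays lay at the low end of the control range, and the difference of -0.14 ± 0.12 was not called (adjusted p = 0.581 in limma). Without control replicate 1, the highest array, it was -0.06. Sirt7, the nucleolar sirtuin, had 220.5, 279.5 and 253.5 in control and 289.7, 320.5 and 219.4 in treated cells. Its groups overlapped, since resveratrol replicate 3 was the lowest array of all 6, and the difference was 0.12 ± 0.13 (adjusted p = 0.674 in limma), or 0.27 without that array.

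Sirt2, the mainly cytosolic sirtuin that deacetylates tubulin, had 567.3, 483.3 and 412.3 in control and 542.1, 495.0 and 487.0 in treated cells. The treated arrays fell inside the control range, with a difference of 0.07 ± 0.11 and an interval from -0.17 to 0.30 (adjusted p = 0.787 in limma). Leaving out control replicate 3, the lowest of the controls, turned it to -0.04.

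Among the mitochondrial sirtuins, Sirt3, the main mitochondrial deacetylase, had 180.8, 134.6 and 131.2 in control and 105.1, 119.3 and 129.9 in treated cells. Every treated array was below every control, but resveratrol replicate 3 and control replicate 3 were close. The difference was -0.29 ± 0.13 (SE), the largest of any sirtuin in the reported fit, with an interval from -0.58 to 0.00 and adjusted p = 0.234 in limma. It rested in part on control replicate 1, without which it was -0.16 (adjusted p = 0.528), and it was -0.51 within the arrays of brighter spikes and -0.07 within those of dimmer spikes. The deposited values of control replicate 1 also differ in form, carrying more decimals than those of the other arrays.

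Sirt4, which acts on enzymes of amino acid and lipid use, had 64.5, 69.6 and 112.1 in control and 80.9, 60.9 and 71.4 in treated cells. Control replicate 3 stood above the rest, and the difference of -0.15 ± 0.18 (adjusted p = 0.715 in limma) became 0.06 without it. Sirt5, which removes succinyl and malonyl groups, had 3 probe sets. Its brightest, 1428916_s_at, had 68.6, 75.2 and 77.3 in control and 57.5, 65.8 and 91.0 in treated cells, a wider spread with treatment and a difference of -0.05 ± 0.15. That value was -0.21 without resveratrol replicate 3 and 0.06 without resveratrol replicate 1. The probe set 1428915_at had 52.9, 66.0 and 56.9 against 43.8, 57.7 and 39.1, a difference of -0.25 ± 0.16 (adjusted p = 0.397 in limma) with overlapping groups. The third, 1432105_at, had intensities of 0.7 to 7.1 on the 6 arrays, below the level tested, and 0.19 ± 0.12 (adjusted p = 0.530 in limma) with no filter.

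Taking the sirtuins as a family, 8 of 9 probe sets were tested for the 7 genes, 0 were called and 0 had an unadjusted p under 0.05. Beside this, 8.22% of all probe sets tested were called, and a count of 0 in 8 is near that share. An unadjusted p under 0.05 was found for 25.8% of all genes tested, each by its brightest probe set. Of the 8 sirtuin probe sets tested, 3 lay above 0 and 5 below. No 95% interval reached further from 0 than 0.60 on the log2 scale. Smaller changes in either direction are not excluded by these arrays, whose intervals had a median width of 0.58 over the 13 probe sets.

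**Figure D3:**
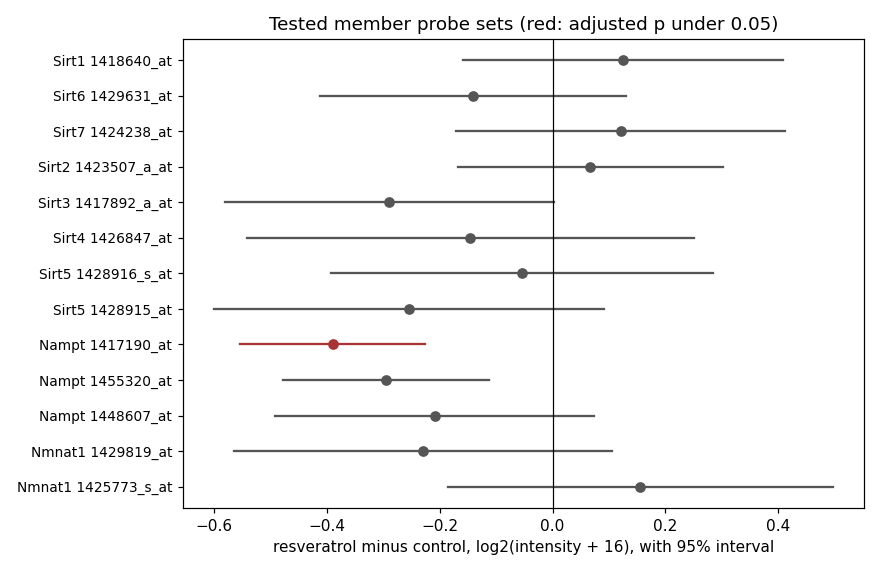
Difference between resveratrol and control (x axis, log2 of intensity plus 16) with its 95% interval for the 13 tested probe sets (y axis). The brightest Nampt probe set is called, at -0.39, and the intervals of all 8 sirtuin probe sets include 0, with Sirt3 just reaching it.

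The Nmnat enzymes, which finish NAD, gave no call. Nmnat1, the nuclear enzyme, had 47.5, 49.4 and 37.8 in control and 45.3, 60.3 and 50 in treated cells at 1425773_s_at, a difference of 0.16 ± 0.16 (adjusted p = 0.635 in limma). At its other probe set, 1429819_at, it had 46.2, 50.5 and 42.4 against 33.0, 42.8 and 36.0, a difference of -0.23 ± 0.15 (adjusted p = 0.435). The probe sets of Nmnat1 thus had opposite signs, both with overlapping groups, and their mean gave -0.04 ± 0.14. Nmnat3, the mitochondrial enzyme, was dim at both of its probe sets. It had 7.2, 18.2 and 3.8 in control and 5.4, 9.0 and 6.7 in treated cells at 1424899_at, and 1.4 to 7.1 and 1.5 to 3.8 at 1432342_at. These lie under 21.0, the lowest mean intensity tested. With no filter on the mean level the probe sets of Nmnat3 had -0.12 ± 0.20 and -0.11 ± 0.12 (adjusted p = 0.856 and 0.768 in limma), neither called.

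Around these genes, the other enzymes and carriers that supply NAD changed at 2 of 10 genes tested. Over all genes tested, each by its brightest probe set, 5.34% rose and 5.21% fell. Slc25a51, the carrier that brings NAD into mitochondria, fell from 1111 ± 73.4 to 827.7 ± 51.7 (SD, n = 3), a difference of -0.42 ± 0.08 (SE) with adjusted p = 0.00943 in limma. Its less bright probe sets had -0.21 and -0.50 and were not called. Nnt, the mitochondrial transhydrogenase that makes NADPH from NADH, rose from 407.8 ± 73.5 to 685.2 ± 52.3, a difference of 0.74 ± 0.11 (adjusted p = 0.00293), and its other tested probe set gave 0.56 (adjusted p = 0.00512). Nmrk1, which makes nicotinamide mononucleotide from the riboside, had -0.36 ± 0.12 with adjusted p = 0.100 and was not called. Nmnat2, a further Nmnat enzyme, had 0.33 ± 0.14 with overlapping groups and was not called (adjusted p = 0.192 in limma). Nadsyn1 had -0.23, and the NAD kinases Nadk and Nadk2 had -0.02 and -0.04, none called. Naprt, the entry enzyme for nicotinic acid, and Qprt, Kmo, Kynu and Haao of synthesis from tryptophan were too dim to be tested. Tdo2, Ido1 and Afmid of the tryptophan route were tested and had -0.02, 0.06 and -0.08, none called (adjusted p = 0.966, 0.908 and 0.828 in limma). The median of the 10 was -0.03, beside 0.02 over all genes tested.

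Enzymes that use NAD or clear nicotinamide went both ways, with 4 of 20 genes tested higher and 3 lower, and a median of 0.05. The shares over all genes tested were 5.34% higher and 5.21% lower. Pnp, the purine nucleoside phosphorylase that also splits nicotinamide riboside, rose from 1219 ± 90.5 to 1907 ± 94.6 (SD, n = 3), a difference of 0.64 ± 0.08 (SE) with adjusted p = 0.000829 in limma. Its probe set may also read the near-identical neighbour Pnp2. The ADP-ribosyltransferases Parp12, Parp14 and Parp3 rose by 0.42, 0.55 and 0.32, although the probe set of Parp3 may cross-hybridise, while Tiparp, another member of that family, fell from 642.7 ± 34.9 to 410.2 ± 7.76, a difference of -0.63 ± 0.07 (adjusted p = 0.000521). Aox1, which oxidises methylated nicotinamide, changed by -0.57 ± 0.08 (adjusted p = 0.00219) and the NADH pyrophosphatase Nudt12 by -0.58. Parp1, the main NAD-using enzyme of DNA repair, had -0.09 (adjusted p = 0.495) and Nnmt, which methylates nicotinamide, 0.21 (adjusted p = 0.125). The number of rises fell to 1 without control replicate 2 or resveratrol replicate 2 and to 2 without control replicate 1 or resveratrol replicate 1. The falls numbered 2 without control replicate 3 or resveratrol replicate 2, a move of 1.5 times. With no intensity trend 2 rose and 2 fell, and with every probe set tested 3 rose and 2 fell.

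Genes that SIRT1 is known to act on, or that regulate it, were called at 6 of 20 genes tested, 2 higher and 4 lower, with a median of -0.05. Among all genes tested, 5.34% were called higher and 5.21% lower. Ppargc1a, the mitochondrial coactivator that SIRT1 deacetylates, was lower at its brightest probe set by -0.60 ± 0.09 (SE, adjusted p = 0.00213 in limma), and 5 of its 5 tested probe sets lay below 0. Foxo1, a SIRT1 substrate and regulator of insulin-responsive genes, fell from 425.8 ± 58.3 to 310.7 ± 13.2 (SD, n = 3), a difference of -0.43 ± 0.10 (adjusted p = 0.0254). With the spike split as a block the value of Foxo1 was -0.39 (adjusted p = 0.0586). Foxo4 changed by -0.41. Creb1 was called lower at its brightest probe set, at -0.42, and at its next brightest, at -0.45 (adjusted p = 0.0375 in limma). Its dimmer tested probe sets had both signs, at 0.22, 0.22 and -0.19, and were not called. The mean over all tested probe sets of Creb1 gave -0.12 ± 0.11 (adjusted p = 0.545 in the separate limma fit of gene means). Rps19bp1, which encodes the SIRT1 activator AROS, rose from 195.7 ± 4.55 to 285.1 ± 16.9, a difference of 0.51 ± 0.08 (adjusted p = 0.0044). E2f1, which drives entry into S phase, rose by 0.41, and Ccar2, which encodes the SIRT1 inhibitor DBC1, had 0.11 (adjusted p = 0.700). The falls numbered 1 without control replicate 2, resveratrol replicate 1 or resveratrol replicate 2, and 2 without control replicate 3 or resveratrol replicate 3. With every probe set tested they numbered 2, and with no intensity trend 1. The rises numbered 1 without control replicate 2, control replicate 3, resveratrol replicate 1 or resveratrol replicate 3.

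Of 11 genes tested for proteins that mitochondrial sirtuins are known to act on, 5 were lower and 1 was higher, with a median of -0.38. For all genes tested these shares were 5.21% lower and 5.34% higher. Sdha of complex II fell from 2664 ± 149 to 1632 ± 55.4 (SD, n = 3), a difference of -0.70 ± 0.08 (SE, adjusted p = 0.000315 in limma). Acadl, the long-chain acyl-CoA dehydrogenase that SIRT3 deacetylates, changed by -0.66 and Mccc1, a leucine-breakdown enzyme that SIRT4 acts on, by -0.64. Ndufa9 of complex I had -0.41 and Pdha1 of pyruvate dehydrogenase -0.38, both called. Glud1, the glutamate dehydrogenase that SIRT4 inhibits, rose from 2359 ± 268 to 3311 ± 186, a difference of 0.49 ± 0.10 (adjusted p = 0.0103), and its other probe set gave 0.52. Sod2 and Idh2, both SIRT3 substrates, had -0.24 (adjusted p = 0.0795) and 0.05 (adjusted p = 0.788). The falls numbered 3 without control replicate 2 or resveratrol replicate 2, and Glud1 was not called without resveratrol replicate 1 (adjusted p = 0.051). With no intensity trend 3 fell and 0 rose. Whether the share called differs from that of other genes was not tested.

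**Figure D4:**
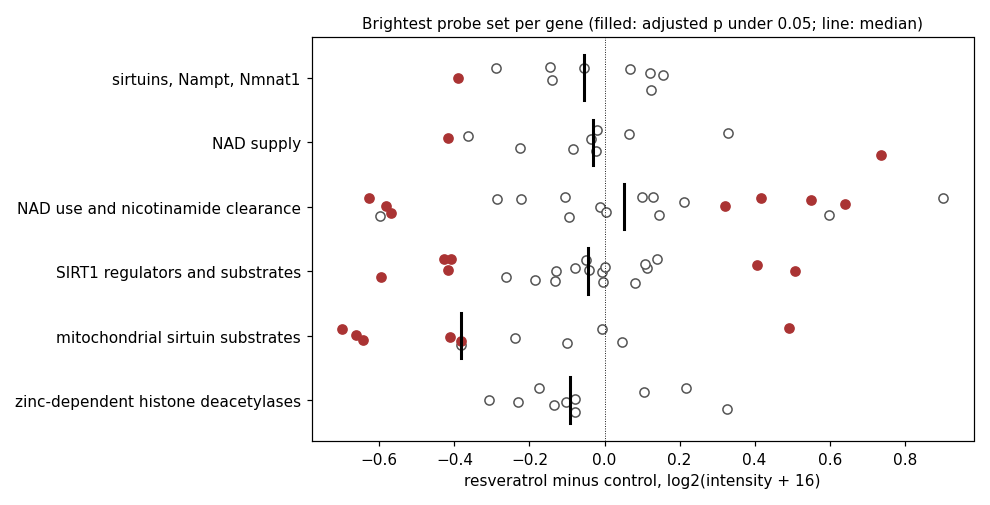
Difference between resveratrol and control (x axis, log2 of intensity plus 16) of each gene tested, by its brightest probe set, for the sirtuins with Nampt and Nmnat1 and for 5 related lists (y axis); filled points have an adjusted p under 0.05 and the bar is the median of the list. The sirtuin and Nampt row has 1 filled point, at -0.39, while the row of mitochondrial sirtuin substrates has 6 and a median of -0.38.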

How the data were processed

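The deposited values are linear intensities, 1 per probe set and array. On control replicate 1 only 0.789% of values have at most 1 decimal, against 100% on every other array. That array enters every comparison here, and what the difference in form means for its values was not tested. RNA was extracted with Trizol and labelled with biotin, per the labels' protocols, while the sources used here do not give the summarising software. On every array the trimmed mean (2% off each end) is 150.0, so the authors' intensities carry 1 scaling factor per array. Such scaling keeps differences between arrays that depend on brightness.

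Of 45101 probe sets, 64 controls were left out, and the 60% with the highest mean over the 6 arrays were tested on log2(intensity + 16) with limma 3.58.1 in R 4.3.3 (lmFit, eBayes with an intensity trend, 2-sided, Benjamini-Hochberg). For counts over genes, the brightest probe set stands for the gene. Symbols came from the platform annotation, which can be old, and 34754 of 34958 single-gene probe sets matched RefSeq by Entrez number. The number of arrays limits the precision. The fit was tested on simulated data. Figures used Python 3.11.15 and matplotlib 3.10.9.

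The genes, the related lists and the alternatives were chosen with earlier results of these data known. Named are all probe sets of the 10 genes, up to 4 called genes per direction of each related list, Foxo1, Ppargc1a and Ccar2, and the marker lists as sums in place of their 2 brightest genes. Called marker genes, Fabp4 and further genes that were not called were named after their values were seen. Counts over related lists under each alternative, and values within the split by spike signal, were added after the data were seen.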

Additional observations from a re-analysis of the deposited data

How the results depend on the processing

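The direction of the brightest Nampt probe set held in all 16 alternatives, from -0.44 to -0.35. The count of called probe sets among the 13 tested was 2 with quantile normalization, an offset of 64, the brightest 40% of probe sets (10 tested) or array weights, 0 without an intensity trend, and 1 to 2 with single arrays left out. Over all probe sets, 2220 were called, 1396 without a filter, 848 without an intensity trend, and 1115 to 1949 with single arrays left out (1178 without control replicate 2, 1224 and 1115 without resveratrol replicates 1 and 2). No pairing by replicate number was evident. The deviations of same-numbered arrays from their group means correlated at -0.06, -0.01 and 0.09, and those of differently numbered arrays at -0.08 to 0.09. With 3 arrays per group, these values cannot show whether the arrays were handled as pairs, and the labels do not say. With the replicate number as a block, 1880 probe sets were called, and 1 of the 13, Nampt at -0.39 (adjusted p = 0.0164). The brightest probe set of Parp3 was not called there (adjusted p = 0.0571). With the spike split as a block, Foxo1, Foxo4, Parp3 and Parp14 were not called at their brightest probe sets. A separate fit of the mean of each gene's probe sets, adjusted over genes, ended the call of Creb1. That fit called Hdac6, Fabp4 and Col1a1 (adjusted p = 0.0213, 0.0302 and 0.0442 in limma), which were not called at their brightest probe sets. The same held for Parp16, Mlycd and Pparg of the related lists (adjusted p = 0.0334, 0.0379 and 0.0399 in limma). Sirt2, Sirt4 and the brightest Sirt5 probe set each changed sign in 1 alternative, never with a call. Without an intensity trend, the related lists had fewer calls: Slc25a51, Foxo1, Foxo4, Creb1, E2f1, Glud1, Pdha1, Ndufa9, Parp3, Parp12 and Nudt12 were among those lost, and the cause was not tested. Low signal limits both probe sets of Nmnat3 and 1 of Sirt5.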

Other observations

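The zinc-dependent histone deacetylases, which remove acetyl groups without NAD, were measured on the same arrays. Of 11 genes, 10 were tested, 0 were called by limma and 3 had an unadjusted p under 0.05, near the 25.8% of all genes tested, with a median difference of -0.09. Hdac6, the cytosolic tubulin deacetylase, had 224.1 ± 8.10 in control and 177.8 ± 7.72 in treated cells (SD, n = 3). Its difference was -0.31 ± 0.09 (SE) with adjusted p = 0.0512 in limma. It was called with quantile normalization, the brightest 40% of probe sets and array weights, and in the separate fit of gene means. Hdac1, a nuclear corepressor subunit, had 0.22 ± 0.07 (adjusted p = 0.102) and Hdac10 0.33 ± 0.13 (adjusted p = 0.172). These 3 were named after their values were seen, and the groups did not overlap for any of them. Groups did not overlap for 4 of the 10 deacetylase genes tested, beside 3818 of all 12650 genes tested. Hdac9 was too dim to be tested.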
